A study of Mus musculus with 2 samples.

Results

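Dendritic cells and Langerhans cells are the antigen-presenting cells of skin, and 10 genes that mark them or build them were followed in 2 RNA-seq libraries of mouse ear skin. The 10 were taken by name from a list (Cd207, Itgax, Flt3, Zbtb46, Batf3, Irf8, Mgl2, Xcr1, Cd209a and Ccr7). That list was chosen with earlier results of these data known. All 10 were among the 34745 genes of the count table. The libraries came from 1 wild type (WT) specimen and 1 specimen of a conditional knockout (cKO) of Kat8, which encodes a histone acetyltransferase. Ears of both genotypes had received 30 mg of a 5% imiquimod (IMQ) cream per ear on 3 consecutive days and were taken on day 4, so both groups carry the same psoriasis-like treatment and no untreated skin was analysed here. The sources used here do not give the Cre driver of the knockout, nor the strain, age and number of animals behind a library. Below, cKO stands for the library that carries the label KAT8 cKO.

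Langerhans cells live between the keratinocytes of the epidermis, depend on the receptor CSF1R and carry the lectin langerin, the product of Cd207. Conventional dendritic cells lie in the dermis, depend on the receptor FLT3 and its ligand, and form a type 1 lineage, which needs BATF3 and IRF8 and carries XCR1, and a type 2 lineage, to which skin cells with MGL2 or CD209a belong. When either kind of cell matures it gains the chemokine receptor CCR7, which leads it into lymphatic vessels and to the lymph node. Several of the 10 genes are also expressed elsewhere. Itgax and Irf8 are also expressed by macrophages and monocytes, Mgl2 and Cd209a by some macrophages and monocyte-derived cells, Ccr7 by T and B cells, and Zbtb46 by endothelium. These are examples, and the other genes of the 10, Cd207 and Batf3 among them, are not taken here as confined to 1 cell type.

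There was 1 library per genotype, so no test and no p-value is given, and every difference describes these 2 libraries. The libraries held 12179608 (WT) and 13727524 (cKO) counts. Kat8 itself did not go down in cKO, with 219 counts in WT and 351 in cKO (1.27-fold, 95% interval 1.07 to 1.51), so every direction below is drawn between libraries as labelled. Some of its exon bases also belong to Prss8. The libraries also differed in sex-linked RNA, with 11891 and 6 counts of Xist and 0 and 838 counts of the Y-linked Eif2s3y, so that sex and genotype cannot be told apart. Markers of ear skin were plentiful in both, with Krt14 at 12587 and 12064 CPM (counts scaled to library size). Muscle markers (Acta1 and Myh1 the most abundant) summed to 13184 CPM in WT and 2421 CPM in cKO, with 8 of 8 lower. Adipocyte markers (Fabp4 and Cfd the most abundant) summed to 2824 and 304 CPM, with 6 of 8 lower. The part of these differences in the values below was not tested.

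The promoters of 3 of the 5 genes that were higher in cKO are shown first. They were picked with these differences known, and a link between promoter sequence and the differences was not tested. The sequences are the bases before the transcription start in RefSeq (build GRCm38.p6), 5' to 3' on the gene's own strand, stopped before the first base of any GENCODE exon of the gene. Capitals mark matches to motifs, on either strand. Cd207 is on the minus strand (chr6:83677858-83678107), Flt3 on the minus strand (chr5:147400490-147400739) and Mgl2 on the plus strand (chr11:70130107-70130328).
Cd207: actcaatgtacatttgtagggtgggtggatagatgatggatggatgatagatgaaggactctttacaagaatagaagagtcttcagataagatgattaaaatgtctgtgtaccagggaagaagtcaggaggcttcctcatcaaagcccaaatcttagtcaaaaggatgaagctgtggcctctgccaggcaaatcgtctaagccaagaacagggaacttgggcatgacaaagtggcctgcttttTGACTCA
Flt3: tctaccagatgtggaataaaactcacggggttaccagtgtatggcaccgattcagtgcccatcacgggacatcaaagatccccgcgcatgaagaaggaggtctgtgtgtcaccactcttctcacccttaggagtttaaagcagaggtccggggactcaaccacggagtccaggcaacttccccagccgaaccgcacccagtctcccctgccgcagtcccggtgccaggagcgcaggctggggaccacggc
Mgl2: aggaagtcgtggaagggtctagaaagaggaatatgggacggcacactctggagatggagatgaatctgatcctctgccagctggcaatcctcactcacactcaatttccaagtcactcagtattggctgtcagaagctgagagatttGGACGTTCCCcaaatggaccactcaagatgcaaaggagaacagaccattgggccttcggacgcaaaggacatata
The 250 bases before the start held an AP-1 site (TGANTCA) in Cd207, at bases 7 to 1 before the start, and also in Itgax and Zbtb46. This motif was in 6.75% of all 32851 promoter windows of that length. An NF-kB core (GGGA, then any 4 bases, then CC) was in Mgl2 and Irf8 and in 17.6% of all windows. The Mgl2 window held it at bases 103 to 94 and again at bases 14 to 5, the latter beyond the stretch printed. The AP-1-IRF composite to which BATF3 and IRF8 can bind together was searched in its close form (GAAA directly before TGANTCA, which contains the AP-1 site) and was found in Zbtb46 alone among the 9 genes with a window, and in 0.1005% of all windows. The Zbtb46 window lies inside the span that GENCODE gives the gene. So do the Batf3 window and a further Irf8 window (chr8:120738389-120738638). The wider form (TTTC, any 4 bases, TGANTCA), the PU.1-IRF composite (GGAA, any 2 bases, GAAA) and the interferon response core (GAAA, any 2 bases, GAAA) were in none of the 9 and in 0.0974%, 2.30% and 2.98% of all windows. These matches are letters in a window and not measured binding. No RefSeq window for Ccr7 was used here.

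Of the 10 genes, 5 were higher in cKO by 2-fold or more, none was lower by as much, 4 lay within 2-fold and 1 (Xcr1) did not reach 1 CPM in either library. The call used the log2 ratio of (cKO CPM + 1) to (WT CPM + 1), which understates the change of genes at low level, with CPM scaled by trimmed mean of M values (TMM) factors. By the same rule 4.56% of all 15240 measured genes were higher and 8.63% lower. Among measured genes with a mean of 1 to 5 CPM, the range of 6 of the 10, 6.74% were higher and 9.81% lower, and among those with a mean of 5 to 25 CPM, the range of Cd207, Itgax and Irf8, 5.18% and 9.24%. The 95% counting interval of the plain ratio lay above 1 for the same 5 genes and below 1 for none, against 32.1% and 31.9% of all measured genes. The median log2 ratio of the 10 genes was 0.71, against 0.01 for all measured genes. Flt3 and Batf3 passed the filter of 1 CPM only through the library in which they were higher.

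**Figure D1:**
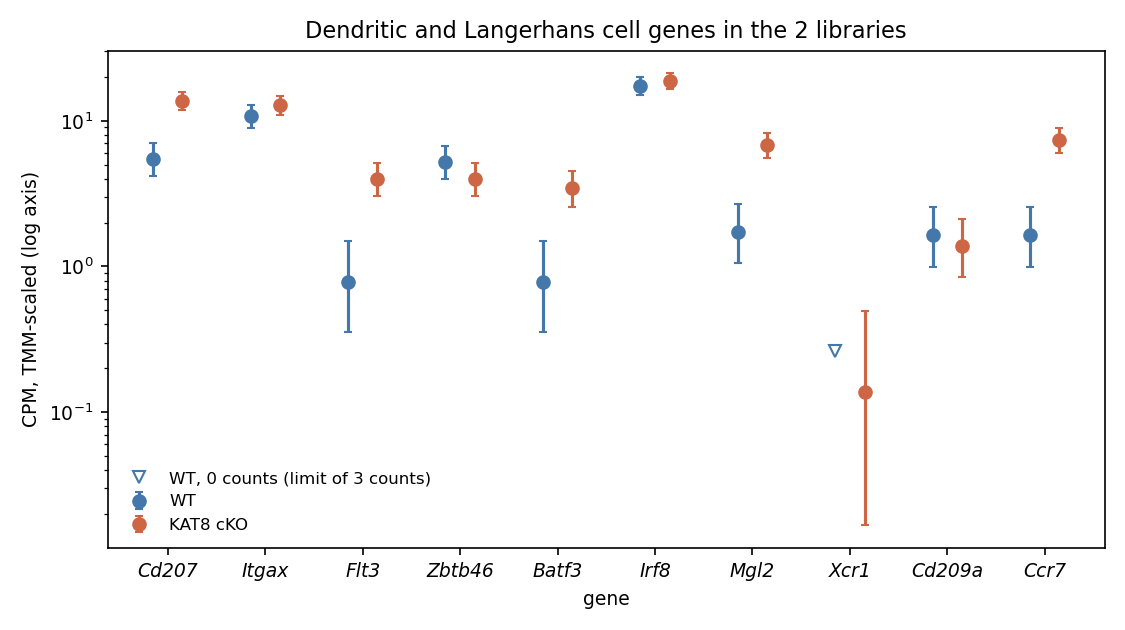
TMM-scaled CPM (log axis) of the 10 genes in the WT (blue) and KAT8 cKO (orange) libraries, with exact 95% Poisson intervals that cover counting error only. Cd207, Flt3, Batf3, Mgl2 and Ccr7, called higher from these same counts, have intervals that do not overlap between the libraries, and the open triangle sets Xcr1, at 0 counts in WT, at the limit of 3 counts (0.260 CPM).

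Of the receptor genes, Ccr7 and Flt3 were higher in cKO and Xcr1 was barely detected. Ccr7 (ENSMUSG00000037944, chr11:99144196-99155077, minus strand, build GRCm38 here and below), the lymph node homing receptor, had 19 counts in WT and 107 in cKO, or 1.65 and 7.37 CPM. This is 4.47-fold higher (95% interval 2.73 to 7.71), a log2 ratio of 1.66 that was above those of 98.6% of measured genes. Flt3 (ENSMUSG00000042817, chr5:147330741-147400489, minus strand), the growth factor receptor of dendritic cell precursors, had 9 and 58 counts (0.781 and 4.00 CPM), 5.12-fold higher with an interval of 2.52 to 11.7. The WT value rests on so few counts that the size of this ratio is loosely fixed, while its interval stays above 2-fold. Xcr1 (ENSMUSG00000060509, chr9:123852315-123862029, minus strand), the receptor of type 1 cells for the chemokine XCL1, had 0 counts in WT and 2 in cKO, both under the floor of 3 counts, so no ratio is given. In WT that floor is 0.260 CPM, and the exact 95% Poisson upper limit of a count of 0 is 0.320 CPM.

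The lectin genes of the list split. Cd207 (ENSMUSG00000034783, chr6:83671215-83677857, minus strand), whose product langerin binds mannose-rich glycans and forms the Birbeck granules of Langerhans cells, had 63 counts in WT and 200 in cKO (5.47 and 13.8 CPM), 2.52-fold higher (interval 1.89 to 3.40). Mgl2 (ENSMUSG00000040950, chr11:70130329-70137550, plus strand), a galactose-type lectin that marks a population of dermal type 2 cells, had 20 and 99 counts (1.74 and 6.82 CPM), 3.93-fold higher (interval 2.41 to 6.71). Cd209a (ENSMUSG00000031494, chr8:3743397-3748984, minus strand), a mouse relative of human DC-SIGN, did not follow them. It had 19 and 20 counts (1.65 and 1.38 CPM), a ratio of 0.836 whose interval of 0.423 to 1.65 lies wholly below that of Cd207. Counts this low leave a 2-fold lower level of Cd209a within its interval.

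The transcription factor genes split as well. Batf3 (ENSMUSG00000026630, chr1:191097847-191108945, plus strand), which type 1 cells require, had 9 counts in WT and 50 in cKO (0.781 and 3.45 CPM), 4.41-fold higher (interval 2.15 to 10.2). Irf8 (ENSMUSG00000041515, chr8:120736358-120756694, plus strand), its partner in type 1 cells and the most abundant of the 10 by CPM, had 201 and 273 counts (17.4 and 18.8 CPM), a ratio of 1.08 with an interval of 0.895 to 1.3002. Zbtb46 (ENSMUSG00000027583, chr2:181387762-181459426, minus strand), a factor that marks conventional dendritic cells against other myeloid cells, had 60 and 58 counts (5.21 and 4.00 CPM), a ratio of 0.767 (interval 0.526 to 1.12). The integrin gene Itgax (ENSMUSG00000030789, chr7:128129547-128150657, plus strand), which encodes CD11c, had 124 and 185 counts (10.8 and 12.7 CPM), a ratio of 1.18 (interval 0.938 to 1.499). For these 3 genes the intervals include 1 and end below 2-fold, so a doubling in the cKO library lies outside the counting error. The intervals of Irf8, Zbtb46 and Itgax do not overlap those of any of the 5 higher genes. The same counts split the genes into these groups, so this gap is a description and not a separate result.

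**Figure D2:**
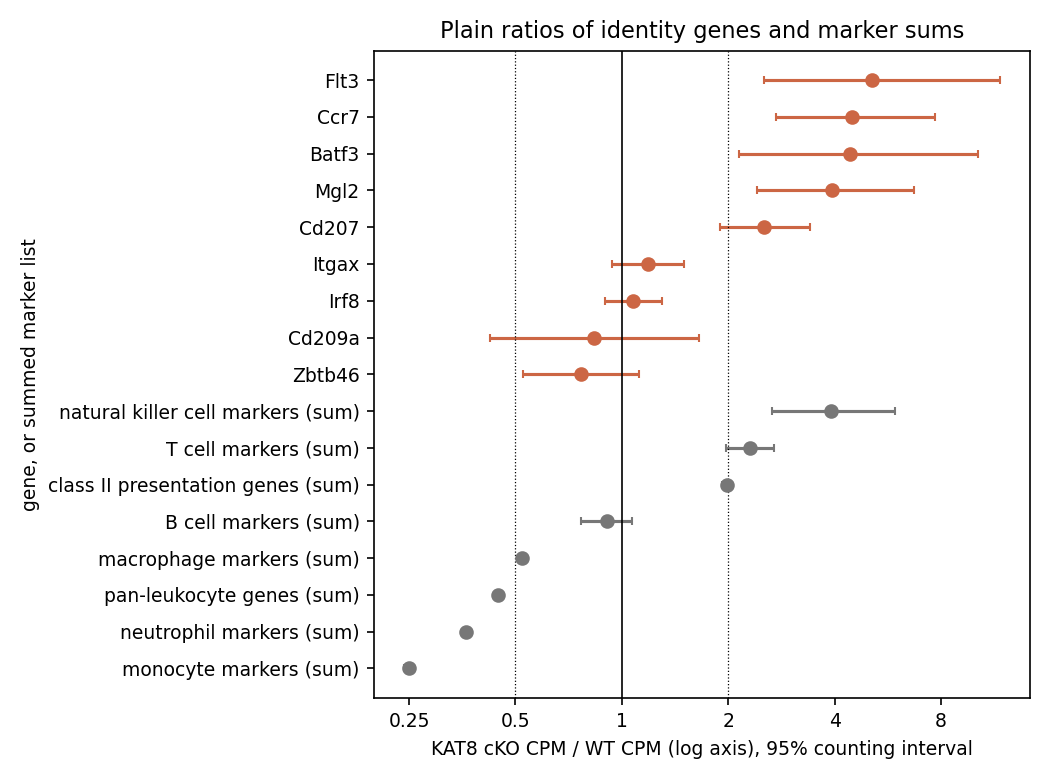
Plain ratio of cKO to WT CPM (log axis) with 95% counting intervals for 9 identity genes (orange) and for summed marker lists (grey); dotted lines mark 2-fold in either direction. Flt3, Ccr7, Batf3, Mgl2 and Cd207 lie between 2.52 and 5.12, Itgax, Irf8, Cd209a and Zbtb46 between 0.767 and 1.18, and the pan-leukocyte sum at 0.445.

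**Figure D3:**
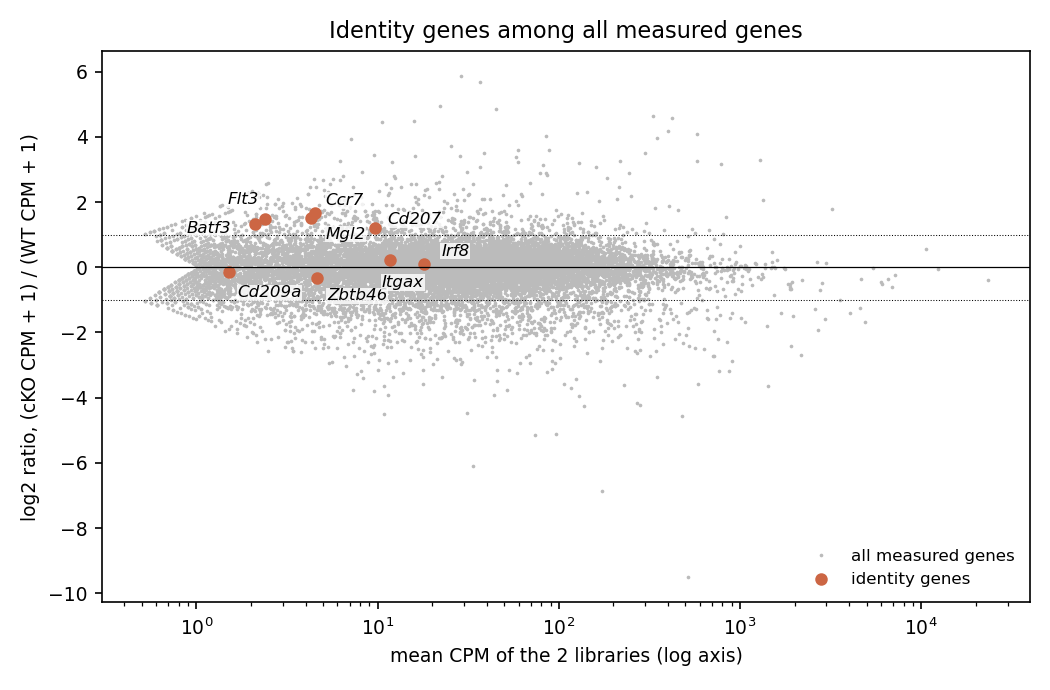
Log2 ratio of cKO to WT, with 1 CPM added to each, against mean CPM (log axis) for all 15240 measured genes (grey) and the 9 measured identity genes (orange); dotted lines mark the 2-fold rule. The 5 higher genes have log2 ratios of 1.19 to 1.66 at mean levels of 2.11 to 9.62 CPM.

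The leukocyte markers in these specimens differed in both directions, and in bulk tissue fewer cells of a type and less RNA per cell cannot be told apart. The 10 pan-leukocyte genes (Lcp1 and Coro1a the most abundant) summed to 2429 CPM in WT and 1082 CPM in cKO, 2.25-fold lower, with 6 of 10 lower and none higher. Neutrophil markers, led by S100a8 and S100a9, summed to 14040 and 5083 CPM (8 of 10 lower), monocyte markers, led by Cd14 and Itgam, to 1340 and 335 CPM (4 of 6 lower), and macrophage markers, led by Lyz2 and C1qb, to 1971 and 1028 CPM (4 of 11 lower). S100a8 and S100a9 held 5844 and 4739 CPM of the neutrophil sum in WT, and 2230 and 2372 CPM in cKO. The median log2 ratio of the neutrophil markers was -1.88. Lyz2 held 940 CPM of the macrophage sum in WT and 376 CPM in cKO. The 7 macrophage markers within 2-fold had ratios from 0.545 (C1qb) to 1.09 (Csf1r), with Adgre1 at 0.945 and Mrc1 at 0.891. T cell markers, led by Trdc and Cd3g, stood at 19.0 and 43.8 CPM (5 of 12 higher). Of the 5, Zap70 and Tcrg-C1 passed the filter of 1 CPM only through cKO. Natural killer markers, led by Gzma and Nkg7, stood at 2.78 and 10.9 CPM (3 of 6 higher). Of the 3, Prf1 and Nkg7 passed the filter only through cKO. Ncr1 had 1 count in WT and 3 in cKO, Klrb1c 4 and 10, and Eomes 0 and 2. None of these reached 1 CPM in either library. B cell markers, led by Ighm and Igkc, stood at 23.5 and 21.3 CPM with none of 7 past 2-fold, and the defining gene Ms4a1 had 4 and 3 counts. The counts of these and the other marker lists are to be read against 4.56% of all measured genes higher and 8.63% lower. The part of any of these lists in the values of the 10 genes was not tested.

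Levels can be compared roughly between genes once CPM is divided by exon length. That length merges all annotated exons of a gene and can exceed the length of the transcripts present. The order and shares below depend on it. Per kilobase, Cd207 was the most abundant of the 10 in both libraries (3.59 CPM per kilobase in WT and 9.05 in cKO). In WT it was followed by Irf8 (2.47) and Itgax (2.24), whose counting intervals overlap each other, with that of Irf8 also overlapping that of Cd207. Cd209a (1.04), Ccr7 (0.834), Mgl2 (0.829), Zbtb46 (0.612) and Batf3 (0.489) came next, each overlapping its neighbour in the order, and Flt3 was at 0.126. In the cKO library Cd207 stood clear of the rest. Ccr7 (3.73) and Mgl2 (3.26) were then ahead of Irf8 (2.67), Itgax (2.65) and Batf3 (2.16), again with overlapping intervals from each to the next. Cd209a (0.871), Flt3 (0.647) and Zbtb46 (0.470) formed a lower tier, and Xcr1 was last at 0.031. By point value Ccr7 and Mgl2 stood below Irf8, Itgax and Cd209a in WT and above them in cKO. As a share of the summed level per kilobase of the 10 genes, Ccr7 made up 6.81% in WT and 14.6% in cKO, and Irf8 20.2% and 10.4%.

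**Figure D4:**
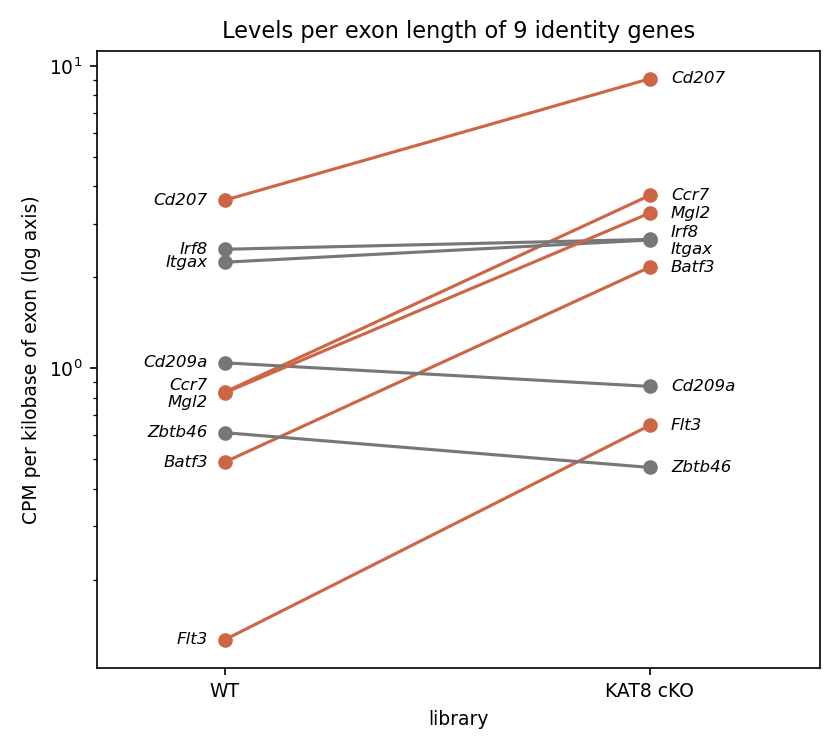
CPM per kilobase of merged exons (log axis) of 9 identity genes in the WT and KAT8 cKO libraries, with lines joining each gene's values; orange lines are the 5 genes that were at least 2-fold higher and Xcr1, at 0 counts in WT, is left out. The orange lines of Ccr7 and Mgl2 cross the flat lines of Irf8, Itgax and Cd209a.

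None of the 10 genes shares exon bases with another gene on either strand in GENCODE release M21. Sequence shared with other genes was checked in words of 50 bases of each gene's transcripts. Cd207, Zbtb46, Batf3, Irf8, Cd209a and Ccr7 had no word in common with any other gene. In Itgax 8.02% of words also occur in Itgad, which had 1 count in WT and 0 in cKO. In Mgl2 13.1% of words occur elsewhere, 12.2% in its neighbour Clec10a, which encodes the related lectin MGL1.

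Mgl2 and Clec10a lie 18.6 kilobases apart on chromosome 11 and differed in opposite directions. Clec10a, a marker of macrophages and type 2 dendritic cells, had 462 counts in WT and 269 in cKO (40.1 and 18.5 CPM), 2.16-fold lower. There were 4.33 counts of Mgl2 per 100 of Clec10a in WT and 36.8 in cKO. Their coding sequences are 90.6% identical over 924 aligned bases, with a longest identical run of 183 bases, and a read that lies within that run cannot be assigned to 1 of them, so the split of counts between them is uncertain. Of the stretches of 90 aligned coding bases that hold no gap, the one with the most differing bases is shown, as an example of what tells their reads apart. Other differing bases lie outside it. Capitals mark the 8 bases that differ, and positions count from the first base of the start codon (722 to 811 in Mgl2, 674 to 763 in Clec10a, GENCODE M21 transcripts).
Mgl2: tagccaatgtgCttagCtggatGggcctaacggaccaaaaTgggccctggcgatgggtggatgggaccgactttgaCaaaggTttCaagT
Clec10a: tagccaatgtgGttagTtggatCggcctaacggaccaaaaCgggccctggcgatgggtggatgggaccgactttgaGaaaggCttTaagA

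Of the 6 relatives of Cd209a in the table, 4 were lower in cKO and 1 was higher. By the same 2-fold rule 8.63% of all measured genes were lower and 4.56% higher. Cd209b, which encodes the macrophage lectin SIGNR1, and Cd209g, Cd209d and Cd209f were 7.36-fold, 4.61-fold, 4.21-fold and 3.26-fold lower in the cKO library. Cd209e had 39 and 21 counts, a log2 ratio of -0.84 that stays within 2-fold by the rule. Cd209c, the 1 called higher, had 2 and 20 counts, with an interval of 1.93 to 70.0 for its ratio. It passed the filter of 1 CPM only through cKO, and its WT count lies under the floor of 3 counts. The 6 relatives together held 99.99 CPM in WT and 26.0 CPM in cKO, lower by 3.85 times (interval 3.42 to 4.34), while the ratio of Cd209a had an interval of 0.423 to 1.65. The coding sequence of Cd209a is 65.4% to 74.8% identical to theirs, with no identical run longer than 21 bases.

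The 10 genes were set beside 10 related lists. For class II antigen presentation, by which dendritic cells show peptides to T cells, 8 of 11 genes were higher and none lower (median log2 ratio 1.35). The class II activator gene Ciita was 3.53-fold, H2-DMb2 4.01-fold, H2-Ab1 2.91-fold and the invariant chain gene Cd74 2.76-fold higher. The interval of Cd207 (1.89 to 3.40) includes the ratio of Cd74, and there were 5.75 counts of Cd207 per 100 of Cd74 in WT and 5.26 in cKO. The counts of the other lists are to be read against 4.56% and 8.63% of all measured genes.

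Of 12 other Langerhans cell genes 1 was higher and none lower (median 0.33). It was Epcam, 2.83-fold higher, an adhesion molecule of Langerhans cells that keratinocytes and gland cells also express. Csf1r, the receptor on which Langerhans cells depend, had 1247 and 1716 counts (1.09-fold), and Cdh1 and Tgfbr2 were 1.15-fold and 1.29-fold. Ly75, which encodes the endocytic receptor DEC-205, had 58 and 125 counts, a ratio of 1.71 (interval 1.24 to 2.38). Of 11 shared dendritic cell genes, 1 was higher and none lower (median -0.11). This was Bcl11a, a transcription factor, at 149 and 452 counts (2.41-fold). Cst3 and Csf2rb, the most abundant, had log2 ratios of 0.24 and -0.46.

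Of 8 other type 1 genes 1 was higher and 1 lower (median -0.06). Itgae, the integrin chain CD103 of type 1 cells and of epidermal T cells, had 8 and 73 counts (7.24-fold higher, interval 3.49 to 17.4), in a library whose T cell markers were 2.30-fold higher in sum. Itgae passed the filter of 1 CPM only through cKO. Nfil3, a factor upstream of type 1 cells and of natural killer cells, was 2.35-fold lower. Clec9a, the defining type 1 lectin, had 0 and 3 counts, so that Xcr1 and Clec9a were both at or under the floor of 3 counts in both libraries while Batf3 was not. Of 9 type 2 genes none was higher and 1, Clec10a, was lower (median -0.31). Irf4, the factor of type 2 cells, had 78 and 57 counts, a ratio of 0.580 (interval 0.405 to 0.827), and Klf4 and Notch2 had log2 ratios of -0.76 and -0.50. Sirpa went the other way, with 519 and 887 counts, a ratio of 1.36 (interval 1.22 to 1.51). It alone of the measured type 2 genes had a positive log2 ratio.

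Among 17 maturation and migration genes 1 was higher and 2 lower (median -0.10). The chemokine gene Ccl22, a product of mature dendritic cells, had 29 and 325 counts (8.90-fold higher, interval 6.08 to 13.5). Cd80, a costimulatory ligand, and Cd274, which encodes the inhibitory ligand PD-L1, were 4.69-fold and 3.31-fold lower, and both are also made by other leukocytes and keratinocytes. Fscn1, an actin bundler of mature dendritic cells that other cells express too, had 1554 and 1550 counts (0.792-fold), so there were 1.22 counts of Ccr7 per 100 of Fscn1 in WT and 6.90 in cKO. Cd83 and Cd40 had plain ratios of 2.15 and 1.89 with intervals of 1.45 to 3.27 and 1.03 to 3.62, and neither passed the rule.

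Plasmacytoid dendritic cell genes had 3 of 9 lower and none higher (median -0.08). They were Cox6a2 (3.05-fold), Ccr9 (18 and 3 counts, past the filter only through WT) and Tcf4 (2.14-fold). Cox6a2 also encodes the muscle form of a respiratory chain subunit, and summed muscle markers were 5.45-fold lower in the same library. The defining gene Siglech had 0 and 4 counts, Spib 0 and 10 and Pacsin1 3 and 10, all below 1 CPM in both libraries. Bst2 had a ratio of 1.24 (interval 1.06 to 1.46), Irf7 of 0.944 and Runx2 of 0.556 (interval 0.403 to 0.762). Of the 13 BATF and IRF family genes and their JUN partners, none was higher and 1, Jun, was lower (2.80-fold, median of the list -0.23). Junb, the most abundant of them, had a log2 ratio of -0.73. Batf had 101 and 75 counts, a ratio of 0.589 (interval 0.431 to 0.803) that does not overlap the interval of Batf3. There were 8.91 counts of Batf3 per 100 of Batf in WT and 66.7 in cKO. Of the 6 ligands and growth factors in the table, none was called. The CCR7 ligand genes Ccl19, Ccl21a and Ccl21b were at 0 counts in both libraries (the Ccl21 copies are nearly identical, so their counting is uncertain), and Xcl1, the ligand gene of XCR1, had 3 and 4 counts. Csf2, the dendritic cell growth factor GM-CSF, had 2 and 7 counts. Csf1, the macrophage growth factor that signals through CSF1R, had 428 and 960 counts, a log2 ratio of 0.82.

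**Figure D5:**
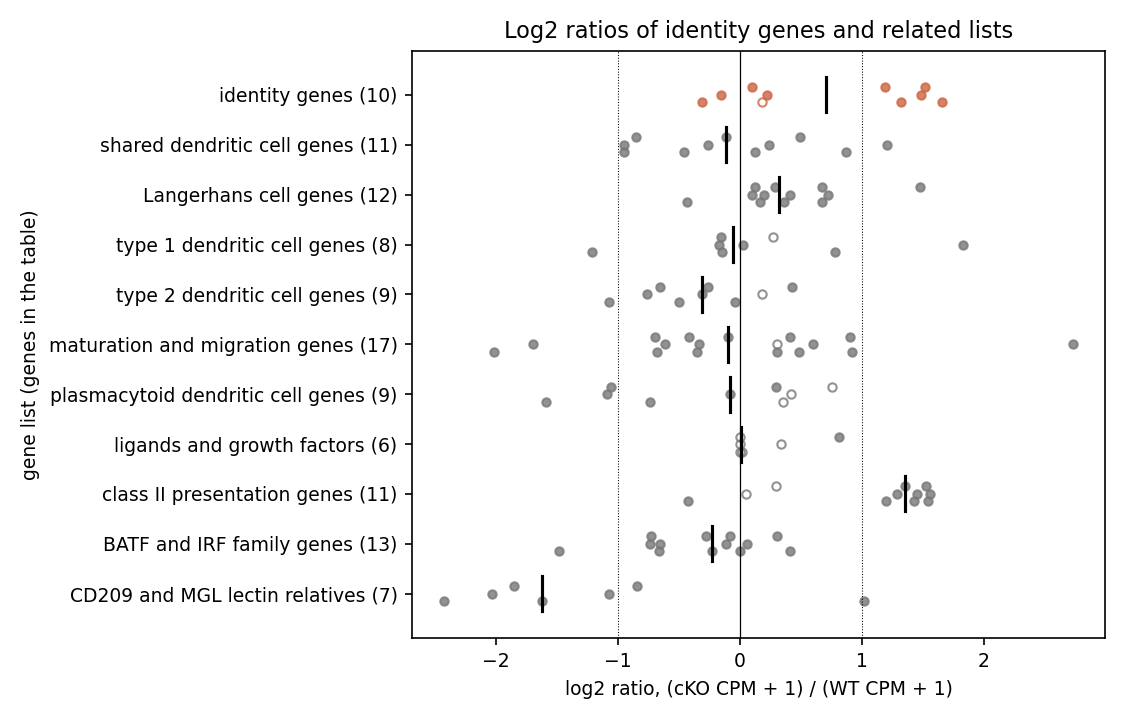
Log2 ratio of cKO to WT, with 1 CPM added to each, for the 10 identity genes (orange) and 10 related lists (grey); filled points are genes measured at 1 CPM, open points are below it, and black ticks are medians over all genes of a list in the table. Ticks stand at 0.71 for the identity genes, 1.35 for class II presentation and -1.62 for the lectin relatives.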

How the data were processed

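Per the labels' protocols, libraries were made from mRNA captured from total RNA of ear skin. The deposited file lists whole-number, unnormalized counts for each Ensembl gene, with 1 column per library. The submitters' processing notes name HISAT2, StringTie 1.3.0, edgeR and mm10. The sources used here do not give the counting tool, annotation release or strand setting. Gene symbols (34267 of 34745), coordinates and exon lengths came from GENCODE mouse release M21 (GRCm38, which mm10 names). Counts were scaled to CPM with TMM factors of 0.946 (WT) and 1.06 (cKO) from edgeR 4.0.16, without testing. A gene was measured at 1 CPM in either library and called at a log2 ratio of 1 in size with a pseudocount of 1 CPM. One count was 0.0868 CPM in WT and 0.0689 CPM in cKO. Plain ratios carry exact (Clopper-Pearson) 95% intervals, and levels exact Poisson intervals. Both cover counting error only, since each genotype has 1 library. PCR copies could not be told from separate molecules, so the intervals may be too narrow even for that.

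The 10 genes and the 20 other lists (10 related, 10 marker) were chosen with earlier results of these data known. Of each related list the text names up to 4 called genes with the largest log2 ratios or, with fewer than 2 called, the 2 most abundant, and of each marker list the 2 most abundant. Genes named beyond this (Bcl11a, Epcam, Clec10a as a type 2 gene, Csf1r, Ly75, Clec9a, Irf4, Sirpa, Fscn1, Cd83, Cd40, Siglech, Spib, Pacsin1, Bst2, Irf7, Runx2, Batf, Cd209c, Cd209e, Xcl1 and the CCR7 ligand genes, Ms4a1, Eomes, Ncr1, Klrb1c, Prf1, Zap70, Tcrg-C1, Adgre1, Mrc1, Ccr2 and Cx3cr1) and the ratios between pairs of genes were chosen after their values were seen. Flt3l was not analysed here. RefSeq promoter windows were matched for 9 of the 10 genes. Coding sequences were aligned with Biopython 1.88. The calculations were tested on simulated data. Alternatives were other scalings, pseudocounts, filters and call rules, and the closing section gives their effect.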

Additional observations from a re-analysis of the deposited data

How the results depend on the processing

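The same 5 genes (Cd207, Flt3, Batf3, Mgl2 and Ccr7) were called higher, and none lower, with plain CPM, DESeq2 size factors, upper quartile factors, totals without the 50 most abundant genes, a pseudocount of 0.1 CPM, no filter, a call at 1.5-fold, a plain fold of 2, an interval that excludes 1, and without genes that share exon bases. With a pseudocount of 5 CPM the count of higher identity genes was 0 (the 5 genes lie at 13.8 CPM or less), and with a filter of 5 CPM it was 3 (Cd207, Mgl2 and Ccr7), as Flt3 and Batf3 then drop out. The median log2 ratio was 1.19 over the 9 measured genes, of which Flt3 and Batf3 passed only through cKO, 0.71 with no filter and also with the filter of 5 CPM, and 0.55 with a pseudocount of 5 CPM. Over the 5 scalings the ratio of Cd207 ranged up to 2.82, that of Flt3 up to 5.72 and that of Zbtb46 from 0.763 to 0.858, and no ratio of the 9 crossed 1.

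Over all measured genes, 695 were higher and 1315 lower. These became 347 and 777 with a pseudocount of 5 CPM, 1966 and 2626 at 1.5-fold, and 4895 and 4859 where the interval excludes 1, so that an interval above 1 was met by 32.1% of measured genes. A plain fold of 2 gave 1050 higher. With plain CPM the split was 964 higher and 1056 lower, and the median of all measured genes moved from 0.01 to 0.16. No paired analysis was possible because each genotype has 1 library. For the same reason no replicate could be left out. Depth limits Xcr1 most, and Flt3, Batf3, Mgl2, Cd209a and Ccr7 rest on 20 or fewer counts in WT.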

Other observations

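The protein-coding genes next to the 10 identity genes on either side were examined. Of 20 neighbours 11 reached 1 CPM, none was called higher in cKO and 2 were called lower, against 4.56% and 8.63% of all measured genes. The 2 lower neighbours were Clec10a beside Mgl2 and Ccr1, a chemokine receptor gene of neutrophils and monocytes 100.1 kilobases from Xcr1, which went from 247 to 63.5 CPM. The genes on either side of Ccr7, Tns4 and Smarce1, had log2 ratios of 0.64 and 0.27, and Nsl1, next to Batf3, 0.36. Pan3, next to Flt3, had -0.02. Gm49368 beside Itgax had -0.98, Cd209e beside Cd209a -0.84 and Fyco1 beside Xcr1 -0.65. Cox4i1 beside Irf8 had -0.22 and Lime1 beside Zbtb46 0.39.

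Itgax lies 204 kilobases from Kat8 on chromosome 7. Itgam, another integrin gene of myeloid cells, had 3283 and 1266 counts, 3.27-fold lower in the cKO library, while the ratio of Itgax was 1.18. There were 3.78 counts of Itgax per 100 of Itgam in WT and 14.6 in cKO.

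Flt3 stood at 0.722 counts per 100 of Csf1r in WT and 3.38 in cKO. Ccr2, a receptor of monocytes that some dermal dendritic cells also carry, had 269 and 512 counts, a ratio of 1.51 (interval 1.301 to 1.76), in a library where summed monocyte markers were 4.00-fold lower. Ccr2 is itself in that sum, as is Cx3cr1, with 40 and 73 counts, a ratio of 1.45 (interval 0.972 to 2.19). The other 4 genes of the sum were called lower.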
